A study of Homo sapiens with 6 samples.

Results

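The genes described here encode the proteins that bind pre-mRNA and build the spliceosome: the SR proteins, the hnRNP proteins, the proteins of the small nuclear ribonucleoproteins (snRNPs), the SF3 complexes, the LSM proteins and the U2 auxiliary factor. They were picked by symbol (SRSF, HNRNP, SNRP, SF3A or SF3B, LSM and U2AF followed by their number or letter, with pseudogenes left out), which gave 64 of the 31368 genes of the table. The 64 comprised 11 SR, 20 hnRNP, 11 SNRP, 9 SF3, 11 LSM and 2 U2AF genes. They were measured by poly-A RNA-seq in CAL27, an established line of human oral (tongue) squamous carcinoma cells, in 3 libraries of untreated cells and 3 libraries of cells given 10 mM lactate for 24 h. Both groups are the same unmodified cell line, and neither the form of the lactate nor the pH of the medium is given in the sources used here. The labels do not say whether libraries of a group came from separate cultures, so p-values here reflect no more than the spread among these libraries, which may be technical.

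In splicing, the U1 snRNP pairs with the start of an intron and the U2 snRNP with its branch point, and the U4, U5 and U6 snRNPs then join to form the catalytic complex. Each of U1, U2, U4 and U5 carries a ring of Sm proteins around its RNA, U6 carries a ring of LSM proteins instead, and the SF3A and SF3B complexes belong to U2. The U2AF pair reads the pyrimidine tract and the AG at the end of the intron and helps U2 to bind. SR proteins mostly bind exonic enhancers and favour use of nearby splice sites, while hnRNP proteins coat nascent transcripts and often act against it. Many of these proteins control each other's and their own mRNAs, in part through exons that lead to decay of the transcript.

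After lactate, most of the genes that changed were lower: 39 of the 64 fell, 7 rose and 18 did not pass the test (limma on log2(FPKM + 1), Benjamini-Hochberg adjusted p under 0.05). FPKM is a read count per length of gene and per library size. A comparison of levels between genes therefore depends on the length used for each gene. The 7 that rose were SF3B1, HNRNPH2, LSM11, HNRNPDL, SNRPA1, SRSF11 and HNRNPLL, and the deepest falls were those of SRSF8, U2AF2, U2AF1, HNRNPAB, HNRNPF, LSM7 and HNRNPC. Changes were small, from -0.40 to 0.39 on the log2 scale with a median of -0.16. That median was -0.06 with quantile normalization, where 29 of the genes passed as lower, and -0.09 with libraries scaled to recovered read totals, where 33 did. Summed over the 64 genes, FPKM was 3655, 3588 and 3618 in the untreated libraries and 3209, 3167 and 3170 in the lactate libraries. The lactate sums all lay below the untreated sums, and the mean changed by -12.1% (3620 ± 33.7 against 3182 ± 23.5; here and below ± is the SD over 3 libraries).

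A change was common in this comparison whatever the gene. Of the 11792 genes tested over the whole table, 58.6% passed in either direction, 27.7% higher and 30.9% lower, against 71.9% of the splicing genes in either direction and 60.9% lower. The groups of 3 libraries did not overlap in 49 of the 64 genes and in 65.5% of all genes tested. Highly expressed genes were lower more often: among the 2386 genes with a mean of at least 20 FPKM, 60.6% were lower and 18.5% higher, and 45 of the splicing genes lie in that range, with 31 lower and 3 higher. At 50 FPKM or more, 71.7% of 972 genes were lower and the median log2 fold change was -0.19, against 19 of 23 splicing genes and a median of -0.23. The lower share of splicing genes was thus 68.9% and 82.6% in these ranges, and whether it differs from that of other genes of the same level was not tested.

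**Figure D1:**
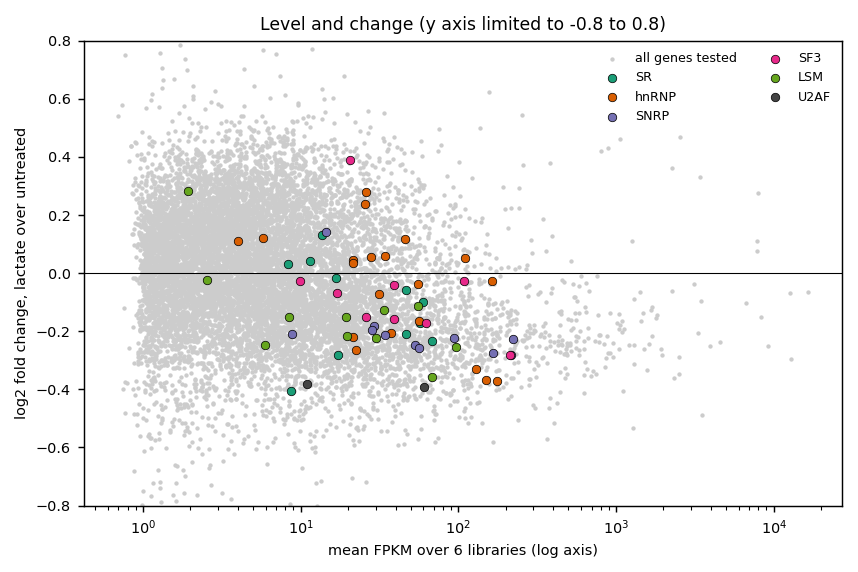
Mean FPKM over the 6 libraries (log axis) against the log2 fold change of lactate over untreated, for all genes tested (grey) and the splicing protein genes coloured by group. The 23 splicing genes at 50 FPKM or more hold 19 falls and 0 rises, in a cloud of which 71.7% of genes were lower.

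Library totals and identity of the cells are given here once. The reads recovered from the FPKM values came to 25690377 to 39142656 per library, and the 64 genes had from 280 (LSM11) to 56383 (HNRNPA2B1) reads in a library. Of the squamous epithelial markers, 8 of 8 reached 1 FPKM, with sums of 937 to 956 FPKM in untreated and 937 to 961 in lactate libraries. None of the 5 fibroblast markers in the table and none of the 3 immune markers reached 1 FPKM, with fibroblast sums of 1.04 to 1.19 and 1.59 to 1.79 and COL3A1 at no more than 0.00444 in a library. Of the 3 endothelial markers only CDH5 did, with sums of 1.13 to 1.41 and 1.03 to 1.13. Replicates were close: the median coefficient of variation of the 64 genes was 2.40% in untreated and 2.61% in lactate libraries. The most variable was LSM11 in untreated cells (7.99%) and HNRNPUL2 in lactate (8.08%).

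**Figure D2:**
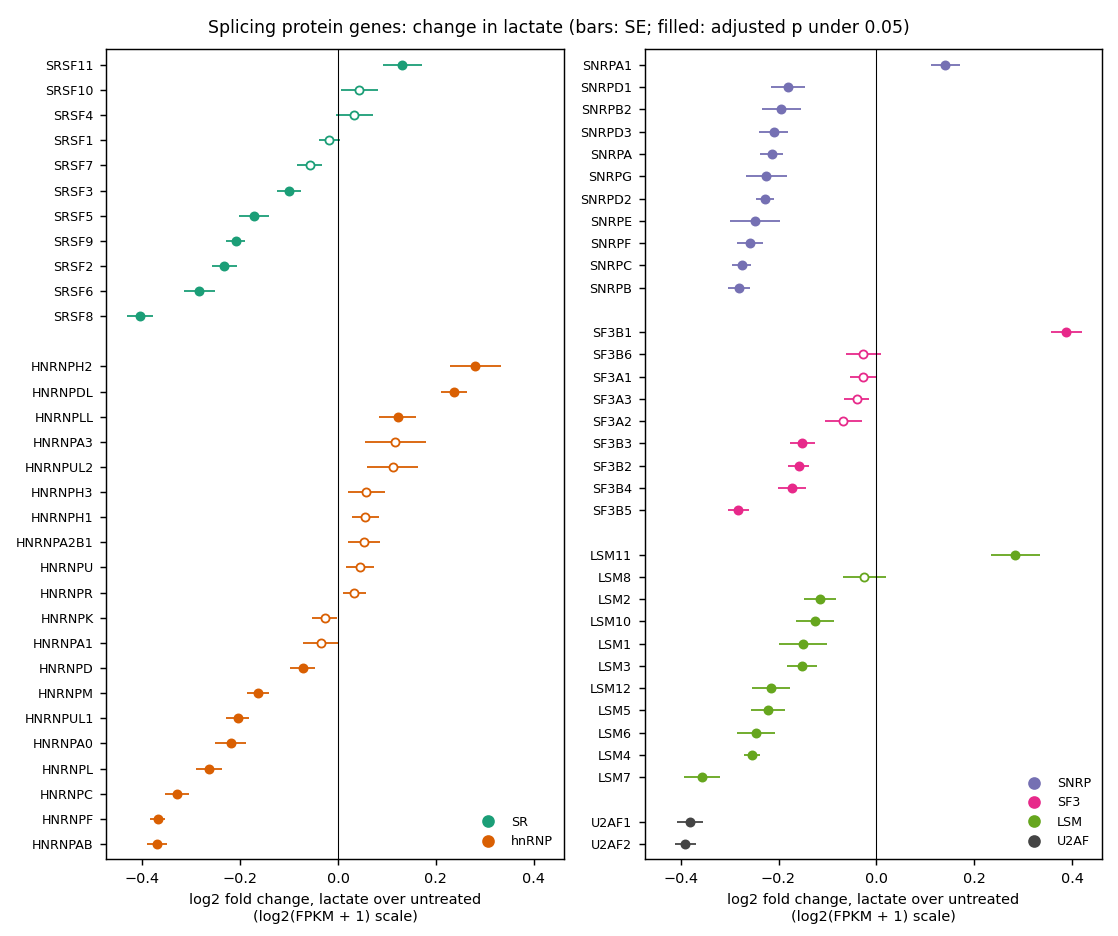
Log2 fold change of lactate over untreated for each of the 64 genes, grouped by family; bars are limma's SE and filled points passed the adjusted p threshold of 0.05. SNRP, LSM and U2AF genes lie mostly left of 0, and the hnRNP genes spread on both sides, from -0.37 to 0.28.

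Of the 11 SNRP genes, 10 fell. All 7 genes of the Sm ring in the table fell (SNRPB, SNRPD1, SNRPD2, SNRPD3, SNRPE, SNRPF and SNRPG), by -0.18 to -0.28 on the log2 scale, and so did both genes of proteins specific to U1, SNRPA and SNRPC. None of the 7 Sm genes rose by limma, also at an unadjusted p under 0.05 (0 genes), and none by voom on the recovered reads. The 11 SNRP genes together went from 1011, 995 and 1002 FPKM to 849.6, 845 and 844, a change of -15.6% in the mean. No untreated sum came near the lactate sums. With quantile normalization all 10 values stayed below 0 but only 7 passed, with a median of -0.11 in place of -0.22; SNRPD2 (-0.05, adjusted p = 0.0530), SNRPG (-0.10, 0.0952) and SNRPE (-0.13, 0.0764) missed the threshold. With the trend on GC content and length removed, the median was -0.12 and SNRPD3 missed it (-0.08, adjusted p = 0.0535). The only SNRP gene that rose was SNRPA1.

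SNRPB (chr20:2461634-2470853, minus strand) encodes SmB and SmB', of the Sm ring. The untreated libraries had 234, 244 and 236 FPKM and the lactate libraries 192, 200.3 and 195. The groups did not overlap, and the log2 fold change was -0.28 (SE 0.0233, adjusted p = 7.03e-05). SNRPC (chr6:34757406-34773794, plus strand) encodes the C protein of U1, which stabilises the pairing of U1 with the intron start. It had 184, 180.0 and 186 FPKM untreated and 148, 152 and 153 in lactate. All lactate values were below all untreated values (log2 fold change -0.28, SE 0.0197, adjusted p = 4.14e-05). SNRPF, another Sm ring gene, went from 60.8, 60.4 and 62.2 FPKM to 52.7, 50.3 and 49.8. These sets were likewise apart, with a log2 fold change of -0.26 (SE 0.0264, adjusted p = 0.000174). SNRPE was the least even of the ring, with 56.5, 56.0 and 61.9 FPKM untreated and 49.6, 45.8 and 50.8 in lactate. Library 3 was the highest of each group, yet the groups stayed apart (log2 fold change -0.25, SE 0.051, adjusted p = 0.00523).

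SNRPD2 was the most abundant of all 64 genes, with a mean of 221 FPKM. It had 244, 234 and 239 FPKM in untreated libraries and 205, 203 and 203 in lactate libraries. The 3 lactate values were nearly alike and far below the untreated ones (log2 fold change -0.23, SE 0.0183, adjusted p = 6.27e-05). The other Sm ring genes were lower by a similar amount, SNRPG at -0.22, SNRPD3 at -0.21 and SNRPD1 at -0.18. SNRPA, which encodes the A protein of U1 and binds a stem-loop of U1 RNA, was at -0.21. FPKM values within the ring were far from equal although its proteins assemble in equal number: SNRPD3 had 9.57 ± 0.133 FPKM in untreated cells and SNRPD1 31.2 ± 1.1, against 239 ± 4.63 for SNRPD2. The gene length behind the FPKM was 3914 bases for SNRPD3, 4862 for SNRPD1 and 1441 for SNRPD2. Their longest transcripts had 1763, 4909 and 901 bases. Whether the length used has a part in these differences was not tested.

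The genes of the U2-specific pair moved in opposite directions. SNRPA1 (chr15:101281510-101295282, minus strand) encodes the A' protein of U2, which binds U2 RNA together with the B'' protein. Untreated libraries had 14.3, 13.7 and 13.4 FPKM and lactate libraries 15.4, 15.3 and 15.3. The lactate values were all higher, with a log2 fold change of 0.14 (SE 0.0297, adjusted p = 0.00494). SNRPB2, which encodes that B'' protein, fell by -0.19 (SE 0.04, adjusted p = 0.00443), from 30.4 ± 1.62 to 26.4 ± 0.715 FPKM. The rise of SNRPA1 did not pass once a trend on GC content and length was removed from each library (0.03, adjusted p = 0.332).

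Several promoters of the SNRP genes share a short sequence, CCGGAAG, the core that ETS family factors recognise. It is shown here because it stood in 7 of the 11 SNRP genes, the family in which 10 of 11 genes fell. The 30 bases around each match are given 5′ to 3′ on the gene's strand (RefSeq windows from 250 bases before to 50 after a start, GRCh38.p14); capitals mark CCGGAAG or its reverse complement CTTCCGG.
SNRPB, chr20:2470812-2470841, minus strand: agtgagctggaCCGGAAGtaggtttctacc
SNRPC, chr6:34757283-34757312, plus strand: aatacgctcttCCGGAAGcaccgacaaaca
SNRPD2, chr19:45692361-45692390, minus strand: ggtccatgcccCTTCCGGatgtaggcaggg
SNRPE, chr1:203861597-203861626, plus strand: ttctttattCCGGAAGttgctctcagaggc
SNRPG, chr2:70293490-70293519, minus strand: cttcatttcttCTTCCGGtccgaggtcgcc
SNRPG, chr2:70293381-70293410, minus strand: cacggcacctcCTTCCGGccgactagtctc
SNRPB2, chr20:16729920-16729949, plus strand: ctgccagagacCCGGAAGcatcgatcggct
SNRPB2, chr20:16729993-16730022, plus strand: tggctacgttgCTTCCGGtgcctggctccg
SNRPA1, chr15:101295343-101295372, minus strand: gcgcgccacgaCTTCCGGcaagaacgcccc
SNRPC carries a second match that overlaps the first on the other strand. Windows were found for 58 of the 64 genes, 80 in all. Of these 58 genes, 7 rose, 34 fell and 17 did not pass. CCGGAAG was counted per window. On either strand it was in 24 of the 80 windows (30%), against 10.3% of 35116 windows of all genes. The match does not go with 1 direction: the 21 splicing genes that hold it include SNRPA1 and HNRNPLL, which rose, 13 that fell and 6 that did not pass. Nor is it particular to the SNRP genes. SF3A1, SF3A2, SF3A3 and SF3B6, which did not pass, hold it too, as do SF3B2 and SF3B4, which fell.

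The U2AF pair had the largest fall of the groups. U2AF2 (chr19:55654146-55674715, plus strand) encodes the large subunit, which binds the pyrimidine tract. It had 68.8, 70.6 and 68.5 FPKM in untreated libraries and 52.7, 53.5 and 51.7 in lactate libraries. The groups were far apart, with a log2 fold change of -0.39 (SE 0.0222, adjusted p = 1.93e-05), a ratio of means of 0.760. U2AF1 (chr21:43092956-43107587, minus strand) encodes the small subunit, which reads the AG. Its libraries gave 12.8, 12.7 and 12.3 FPKM untreated and 9.47, 9.43 and 9.43 in lactate. Again every lactate value was below every untreated one (log2 fold change -0.38, SE 0.0265, adjusted p = 3.66e-05). Both U2AF genes passed a minimum fold of 1.2, which 5 of the 64 genes did downward (SRSF8, HNRNPF, HNRNPAB, U2AF1 and U2AF2) and 2.05% of all genes. Upward, 1.59% of all genes passed it by limma and 0 of the 64, with 1, SF3B1, at an unadjusted p under 0.05.

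The promoter of U2AF2 also holds the ETS core, 30 bases around which are shown for comparison with the SNRP genes.
U2AF2, chr19:55654994-55655023, plus strand: gccggcggcggCCGGAAGtagccgaagcca
The genome build has a near-identical entry elsewhere on chromosome 21, U2AF1L5, and reads of one could be assigned to the other. The FPKM given above for U2AF1 may thus hold only part of its reads. Whether U2AF1L5 is a separate gene in these cells was not tested, so its fall is not a second, independent one. U2AF1L5 had 11.9 ± 0.329 FPKM untreated and 9.07 ± 0.138 in lactate, a log2 fold change of -0.35 (adjusted p = 7.52e-05). The U2AF1L5 entry held 48.8% of the reads of the pair. The log2 ratio of normalised reads was -0.42 for U2AF1 alone and -0.40 with that entry added.

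**Figure D3:**
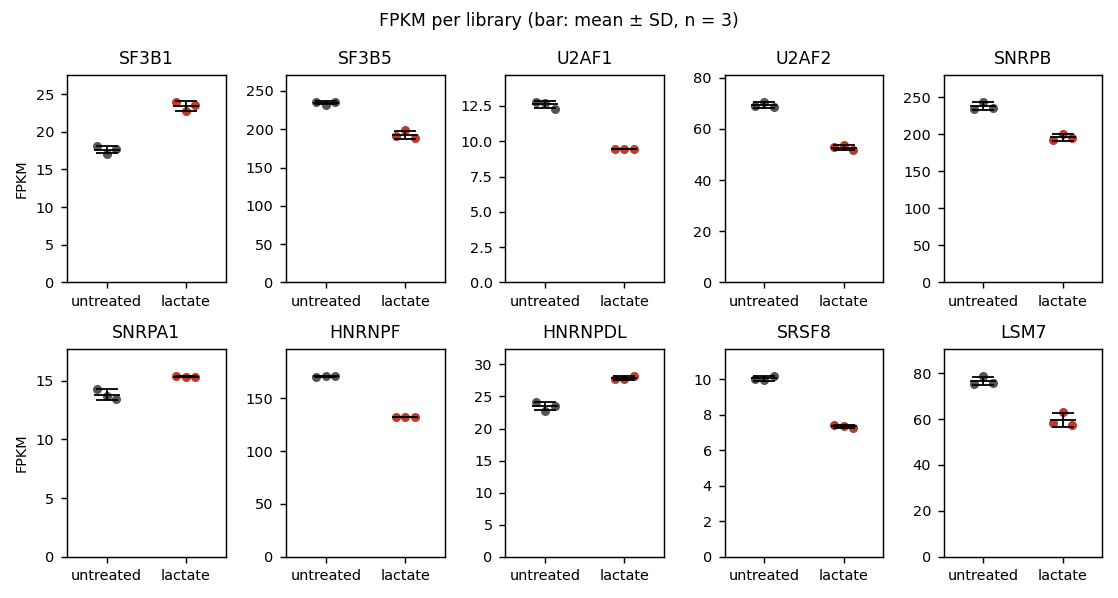
FPKM in each library for 10 of the genes, with the mean and SD of 3 libraries, on axes that start at 0. SF3B1, SNRPA1 and HNRNPDL were higher in all lactate libraries, and SF3B5, U2AF1, U2AF2, SNRPB, HNRNPF, SRSF8 and LSM7 were lower in all of them.

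Within the SF3 group, SF3B1 rose while 4 other SF3B genes fell. SF3B1 (chr2:197389784-197435091, minus strand) encodes the large scaffold of SF3B that clamps the branch point duplex and is often mutated in blood cancers. It had 18.1, 17.1 and 17.7 FPKM in untreated cells and 24.0, 22.7 and 23.5 in lactate. No untreated library reached the lowest lactate library, and the ratio of means was 1.33, below the 1.35 of LSM11. On the log2(FPKM + 1) scale SF3B1 had the largest rise of the 64, a log2 fold change of 0.39 (SE 0.0313, adjusted p = 6.27e-05). It kept its call and direction in each of the 16 alternatives that did not use a stricter threshold, from 0.22 with the GC and length trend removed (adjusted p = 0.000297) to 0.46 with libraries scaled to recovered read totals. With a minimum fold of 1.2 its adjusted p was 0.0579.

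SF3B5 (chr6:144094881-144095573, minus strand) encodes a small subunit of SF3B from a gene of only 693 bases. It had 236, 232 and 236 FPKM untreated and 191, 199 and 189 in lactate. The groups were apart, at a log2 fold change of -0.28 (SE 0.0217, adjusted p = 5.27e-05). SF3B4 contacts the pre-mRNA near the branch point and had 66.3, 67.7 and 63.9 against 60.0, 58.2 and 57.1 FPKM. Its lactate values were all lower (-0.17, SE 0.0287, adjusted p = 0.00167), but once that trend was taken out the value was -0.02 (adjusted p = 0.625). SF3B2, which binds SF3B4, had 41.2, 41.8 and 40.7 FPKM untreated and 37.3, 36.7 and 36.5 in lactate. SF3B3, a beta-propeller protein that cradles the complex, had 27.8, 26.5 and 27.6 against 24.4, 24.2 and 24.8. Both were lower in all lactate libraries, SF3B2 at -0.16 (adjusted p = 0.000532) and SF3B3 at -0.15 (adjusted p = 0.00201). SF3B6, which sits at the branch point adenosine, did not pass (109.9 ± 4.95 against 108 ± 3.05 FPKM, -0.03).

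The 3 SF3A genes did not pass the test by limma, at an unadjusted p under 0.05 (0 genes) or by voom (0 genes). SF3A1 was at -0.03 (10.1 ± 0.121 against 9.85 ± 0.132 FPKM) and SF3A3 at -0.04 (39.7 ± 0.582 against 38.6 ± 0.932). SF3A2 was at -0.07 (17.4 ± 0.582 against 16.6 ± 0.706) and passed without the second lactate library (-0.10, adjusted p = 0.0472). The SE of these estimates was 0.0249 to 0.0379, several times smaller than the change of SF3B5. Of the SF3B genes 5 of 6 passed, and the difference between the complexes was not tested.

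Of the LSM genes, 9 fell, LSM11 rose and LSM8 did not pass. The U6 ring of LSM2 to LSM8 accounts for 6 of the falls, with a median of -0.22 over its 7 genes. LSM7 (chr19:2321517-2328620, minus strand) had 75.5, 78.8 and 75.7 FPKM in untreated and 58.3, 63.2 and 57.6 in lactate libraries. The second library was the highest of both groups, and the groups were apart (log2 fold change -0.36, SE 0.0373, adjusted p = 0.000193). LSM4 (chr19:18306230-18323274, minus strand), the most abundant LSM gene, had 105, 106 and 105 FPKM against 87.5, 89.3 and 88.3. Its values barely varied within a group, which gave a log2 fold change of -0.25 (SE 0.0168, adjusted p = 3.17e-05). LSM6 had 6.27, 6.84 and 6.39 against 5.17, 5.45 and 5.35 FPKM. LSM5 had 33.1, 30.9 and 32.8 against 27.9, 26.7 and 28.1. Neither gene's groups overlapped, with LSM6 at -0.25 (adjusted p = 0.00128) and LSM5 at -0.22 (adjusted p = 0.00113). LSM3 was at -0.15 and LSM2 at -0.11.

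LSM8, which distinguishes the nuclear U6 ring from the cytoplasmic ring, was at 2.58 ± 0.0689 and 2.53 ± 0.154 FPKM, with overlapping groups (-0.02, adjusted p = 0.650). LSM1, which takes the place of LSM8 in the cytoplasmic ring that acts in mRNA decay, was at -0.15 (8.92 ± 0.545 against 7.94 ± 0.382 FPKM, adjusted p = 0.0322). LSM12, an LSM protein with no known place in these rings, fell by -0.22 (adjusted p = 0.00235).

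LSM10 and LSM11 belong to the U7 snRNP, which processes the ends of histone mRNAs, and they went in opposite directions. LSM11 (chr5:157743695-157760709, plus strand) was the lowest of the 64 genes and had 1.77, 1.69 and 1.51 FPKM untreated and 2.32, 2.23 and 2.15 in lactate. All lactate values were higher, with a ratio of means of 1.35 and a log2 fold change of 0.28 (SE 0.0501, adjusted p = 0.00215) on a scale that understates the change of low genes. From the recovered reads, voom gave 0.44. LSM10 was at -0.13 (35.4 ± 0.774 against 32.4 ± 1.73 FPKM, adjusted p = 0.0256).

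The calls of LSM1, LSM2 and LSM10 were close to the threshold, and each was lost when any of several libraries was left out, with a log2 fold change that stayed between -0.10 and -0.15. LSM2 missed the threshold without the first untreated library (adjusted p = 0.0551) or the third lactate library (0.0501). LSM1 missed it without the third untreated library (0.0875), the first lactate library (0.0971) or the second (0.0720). LSM10 missed it without untreated library 2 (0.0756) or 3 (0.0530) and without lactate library 1 (0.0785) or 3 (0.0842). The sign of LSM2 and LSM10 also turned with the GC and length trend removed (0.07 and 0.05), and that of LSM2 with quantile normalization (0.01).

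Among the 11 SR genes, 6 fell, SRSF11 rose and 4 did not pass. Their summed FPKM was 379, 367 and 373 in untreated and 343, 332 and 336 in lactate libraries, a change of -9.58% in the mean. The median change over the group was -0.10, and it turned to 0.02 with quantile normalization. SRSF8 (chr11:95067197-95071224, plus strand), an SR gene related to SRSF2, had 10.0, 9.97 and 10.2 FPKM against 7.42, 7.39 and 7.24. The groups were far apart, with the deepest fall of the 64 genes at -0.40 (SE 0.0268, adjusted p = 3.17e-05), a ratio of means of 0.731. SRSF2, known as SC35, was the most abundant SR gene, with 74.7, 71.7 and 73.9 FPKM untreated and 63.1, 60.6 and 63.4 in lactate. The lactate values were all lower (-0.23, SE 0.0257, adjusted p = 0.000243).

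SRSF6 had 19.9, 18.6 and 18.9 FPKM untreated and 15.7, 15.7 and 15.2 in lactate. Its groups did not overlap (-0.28, SE 0.0317, adjusted p = 0.000258). SRSF9 had 50.4, 50.5 and 49.5 against 43.0, 43.3 and 43.3 FPKM. Here too the groups were apart (-0.21, SE 0.0191, adjusted p = 0.000105). The exons of SRSF9 share 1729 bases with GATC and those of SRSF2 share 1106 bases with MFSD11, both on the opposite strand, and whether strand was used in counting is not given in the sources used here. SRSF5 at -0.17 and SRSF3 at -0.10 completed the falls, although SRSF3 was at 0.02 after quantile normalization and neither passed there.

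SRSF11 (chr1:70205682-70253052, plus strand), an SR protein also called p54, had 13.4, 12.9 and 12.6 FPKM untreated and 15.1, 13.8 and 14.1 in lactate. The groups did not overlap, at a log2 fold change of 0.13 (SE 0.0389, adjusted p = 0.0213). The rise missed the threshold without untreated library 2 (adjusted p = 0.0560), untreated library 3 (0.0696) or lactate library 1 (0.0556), and its sign turned with the GC and length trend removed (-0.06). SRSF10 at 0.04, SRSF4 at 0.03 and SRSF1 at -0.02 did not pass, and their groups overlapped. SRSF7 was at -0.06 with groups that did not overlap (adjusted p = 0.0801) and passed without the first lactate library (-0.08, adjusted p = 0.0190). SRSF1, a founding SR protein that acts at both splice sites, had 16.9 ± 0.0947 and 16.6 ± 0.112 FPKM. Exons of SRSF1 share 1890 bases with AC015813.2 on the same strand.

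**Figure D4:**
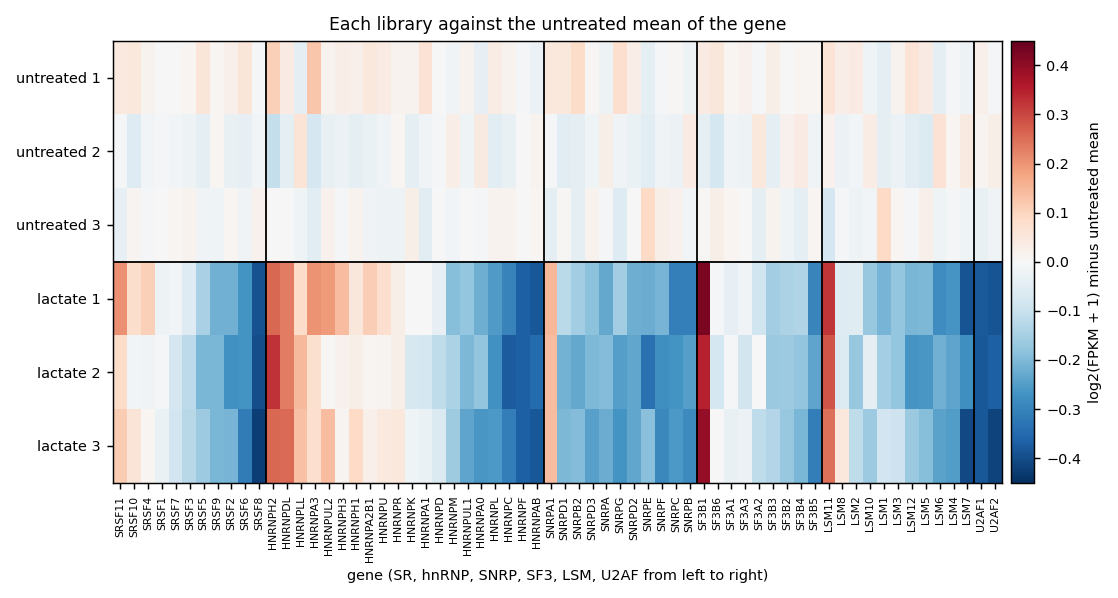
Each library's log2(FPKM + 1) minus the untreated mean of the gene, for the 64 genes (columns) in the 6 libraries (rows), with the colour scale from -0.45 (blue) to 0.45 (red). The lactate rows are blue across the SNRP, LSM and U2AF genes except SNRPA1, LSM11 and LSM8, and of both colours across the SR and hnRNP genes.

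The hnRNP genes were the most divided group: 8 fell, 3 rose and 9 did not pass, with a median change of 0.00. Their summed FPKM went from 1242, 1216 and 1230.1 to 1128, 1099 and 1108, a change of -9.55% in the mean. The falls in the sum came from a few abundant genes. HNRNPAB (chr5:178204507-178211163, plus strand), which binds AU-rich and other single-stranded RNA, had 196, 202 and 201 FPKM untreated and 153, 157 and 153 in lactate. The groups were far apart (-0.37, SE 0.0202, adjusted p = 1.70e-05). HNRNPF (chr10:43385617-43409166, minus strand), which binds runs of G, had 170.0, 171 and 171 FPKM against 132, 132 and 132. It had the smallest spread of the 64 genes in lactate, a coefficient of variation of 0.197%, and a log2 fold change of -0.37 (SE 0.0147, adjusted p = 9.81e-06).

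HNRNPC (chr14:21209136-21269494, minus strand), which binds runs of U and packages nascent RNA, had 146, 141 and 146 FPKM untreated and 117, 111 and 116 in lactate. The lactate values were all lower (-0.33, SE 0.0249, adjusted p = 4.96e-05). HNRNPL, which binds CA repeats, had 25.2, 23.8 and 24.9 FPKM against 20.5, 20.2 and 20.4. Its groups were apart as well (-0.26, SE 0.027, adjusted p = 0.000177). HNRNPA0 at -0.22, HNRNPUL1 at -0.21, HNRNPM at -0.16 and HNRNPD at -0.07 made up the rest of the falls. HNRNPD, also called AUF1, a binder of AU-rich elements, was near the threshold (adjusted p = 0.0438). It missed it without untreated library 1 (adjusted p = 0.0958), 2 (0.0772) or 3 (0.102) and without lactate library 2 (0.112) or 3 (0.0885).

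HNRNPH2 and HNRNPDL were the clear rises of the group. HNRNPH2 (chrX:101408295-101414133, plus strand), a binder of G runs related to HNRNPF, had 25.3, 21.7 and 23.4 FPKM untreated and 28.2, 29.6 and 28.2 in lactate. The lowest lactate library was above the highest untreated one (0.28, SE 0.0524, adjusted p = 0.00311). Exons of HNRNPH2 share 362 bases with the readthrough gene RPL36A-HNRNPH2 on the same strand. HNRNPDL (chr4:82422564-82430408, minus strand), the close relative of HNRNPD, had 24.1, 22.8 and 23.5 against 27.7, 27.7 and 28.2 FPKM. The groups did not overlap (0.24, SE 0.0265, adjusted p = 0.000252). HNRNPLL, a relative of HNRNPL known for control of exon choice in lymphocytes, had 5.29, 5.75 and 5.39 FPKM against 5.85, 6.17 and 6.10. These were apart by little (0.12, SE 0.0383, adjusted p = 0.0275), and the rise missed the threshold without untreated library 1 (adjusted p = 0.0836) or 3 (0.0785) and without lactate library 2 (0.0766) or 3 (0.0804). Related genes could thus lie on opposite sides, as HNRNPH2 and HNRNPF did. HNRNPDL and HNRNPD did so too, except with quantile normalization, where HNRNPD was at 0.01. So did HNRNPLL and HNRNPL, except with the GC and length trend removed, where HNRNPLL was at -0.04. These pairs were chosen after their values were seen. HNRNPH1 and HNRNPH3, of the same name series as HNRNPH2, were both at 0.06 and did not pass.

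The other hnRNP genes did not pass. HNRNPA3 was at 0.12, HNRNPUL2 at 0.11, HNRNPH3 and HNRNPH1 at 0.06, HNRNPA2B1 and HNRNPU at 0.05, HNRNPR at 0.03, HNRNPK at -0.03 and HNRNPA1 at -0.04. HNRNPA2B1 had 109 ± 3.16 and 113 ± 4.44 FPKM and HNRNPK 165 ± 4.08 and 162 ± 4.17, and in both of these abundant mRNAs the libraries of the groups overlapped. HNRNPA3 passed without the first untreated library (0.18, adjusted p = 0.0134) and HNRNPUL2 without the second lactate library (0.16, adjusted p = 0.0132). HNRNPU shares 3502 exon bases with COX20 on the opposite strand, and HNRNPUL2 shares 2391 with the readthrough gene HNRNPUL2-BSCL2 on its own strand.

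The promoters of SF3B1, HNRNPDL and HNRNPH2, 3 of the genes that rose, hold CACGTG, the E-box read by MYC and related factors. They are shown because these were the rises that kept their call in the alternatives tried, with LSM11. Capitals mark CACGTG, which is its own reverse complement.
SF3B1, chr2:197435119-197435148, minus strand: tggcagttctgtCACGTGtcacccgacgga
HNRNPDL, chr4:82430364-82430393, minus strand: agaggcccggggCACGTGcagaaaggagcc
HNRNPDL, chr4:82430572-82430601, minus strand: ggagcccgagacCACGTGggcaggaaaagg
HNRNPH2, chrX:101407972-101408221, plus strand: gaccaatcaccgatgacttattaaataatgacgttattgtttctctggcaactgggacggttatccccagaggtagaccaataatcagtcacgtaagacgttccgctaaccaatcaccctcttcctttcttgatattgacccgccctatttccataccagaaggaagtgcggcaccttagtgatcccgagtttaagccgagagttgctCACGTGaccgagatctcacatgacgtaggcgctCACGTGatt
The HNRNPH2 sequence is the whole stretch of 250 bases before the start. CACGTG was in 10 of the 80 windows of splicing genes (12.5%), against 7.26% of all windows. Of the 8 genes that hold it, 3 rose, 3 fell (HNRNPD, HNRNPM and HNRNPUL1) and 2 did not pass. The genes with a window comprised 7 that rose, 34 that fell and 17 that did not pass. Whether the match goes with direction was not tested. Among the other motifs searched on both strands, CCAAT was in 38.8% of the windows against 34.6% of all, GGGCGG in 57.5% against 45%, and TATAAA in 8.75% against 11.5%. The windows of all genes were not limited to expressed genes. Longer motifs, of NRF1, of YY1 and a CG-rich palindrome, were searched earlier and are not reported here. A match describes the letters of these windows only.

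Many of these genes have processed copies in the genome, and 19 of the 66 pseudogene entries left out had enough reads to test. Of these, 3 were higher and 4 lower, while 58.6% of all genes tested passed in either direction. Reads of a gene could be assigned to its copies, so the direction of a copy is not independent of that of its gene. HNRNPA1 shared the most reads with copies: 5 copies held 56.1% of the reads of the set, and HNRNPA1P7 alone had 273 ± 5.62 FPKM untreated and 265 ± 5.27 in lactate. With or without copies its log2 ratio of normalised reads was small, at -0.06 and -0.04. SNRPA1P1 went from 40.2 ± 1.67 to 47.0 ± 2.77 FPKM (0.22, adjusted p = 0.00603), the same direction as SNRPA1. HNRNPCP2 went from 131 ± 4.55 to 99.7 ± 2.04 FPKM (-0.39, adjusted p = 4.49e-05), the direction of HNRNPC. For 11 genes with tested copies the log2 ratio moved by at most 0.03 when the copies' reads were added.

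Beyond these families, 123 other genes of the splicing machinery and its regulators were listed. They matched 124 entries of the data, of which 121 were tested. Of those tested, 36 were higher, 52 lower and 33 did not pass, with a median change of -0.06. In either direction 72.7% passed, against 58.6% of all genes tested. The lower share was 43.0%, against 30.9% of all genes tested and 44.5% of those with a mean of at least 5 FPKM. Of all genes tested, 27.7% were higher. PRPF18, a second-step factor, went from 1.87 ± 0.254 to 2.83 ± 0.282 FPKM (0.42, adjusted p = 0.00321). SON, a large SR-related protein of nuclear speckles, went from 11.3 ± 0.197 to 14.4 ± 0.313 (0.32, adjusted p = 8.38e-05). DDX46, the helicase that acts with SF3B1 on U2, went from 7.08 ± 0.293 to 9.05 ± 0.167 (0.32, adjusted p = 0.000252). SLU7, another second-step factor, was at 0.31. Among the deepest falls were SNRNP25, of the minor spliceosome (32.1 ± 0.798 to 22.5 ± 0.246 FPKM, -0.49), DDX39A, an mRNA export helicase (-0.43), and KHSRP (96.0 ± 1.59 to 71.8 ± 0.557, -0.41). Each of these 3 had an adjusted p of at most 1.42e-05, and the libraries of the 2 groups did not overlap.

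The change of a gene went with its composition and length over the whole table. Over 9881 protein-coding genes, the log2 fold change had a Spearman correlation of -0.48 with GC content of the longest transcript. Its correlation with the gene length recovered from the FPKM values was 0.32. Over the 64 splicing genes these were -0.36 and 0.42, and -0.42 with the mean FPKM. These are descriptions across genes, which share the 6 libraries and are not independent. The recovered reads also came to 102.1% to 103.3% of the library size behind the FPKM in untreated and 97.07% to 98.2% in lactate libraries. Whether composition, length or library scaling has a part in these changes was not tested.

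When the trend on GC content and length was removed from each library, the families changed order. The median became -0.41 for U2AF, -0.22 for SR, -0.14 for hnRNP, -0.12 for SNRP, -0.13 for LSM and -0.02 for SF3 genes. In that setting 10 of 11 SR genes and 14 of 20 hnRNP genes were lower. HNRNPU (-0.18), HNRNPR and SRSF10 (both -0.15), SRSF4 and HNRNPH1 (both -0.14) and HNRNPA2B1 (-0.13) then passed as lower. So did LSM8 (-0.19), SRSF7 (-0.16), HNRNPK and HNRNPA1 (both -0.13) and SRSF1 (-0.11), which had not passed before. HNRNPUL2 (0.19) newly passed as higher. SF3B1 (0.22), HNRNPH2 (0.24), LSM11 (0.20) and HNRNPDL (0.18) were still higher, and U2AF1 (-0.52) and U2AF2 (-0.30) still lower. HNRNPC went to -0.50, the largest fall after that of U2AF1.

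**Figure D5:**
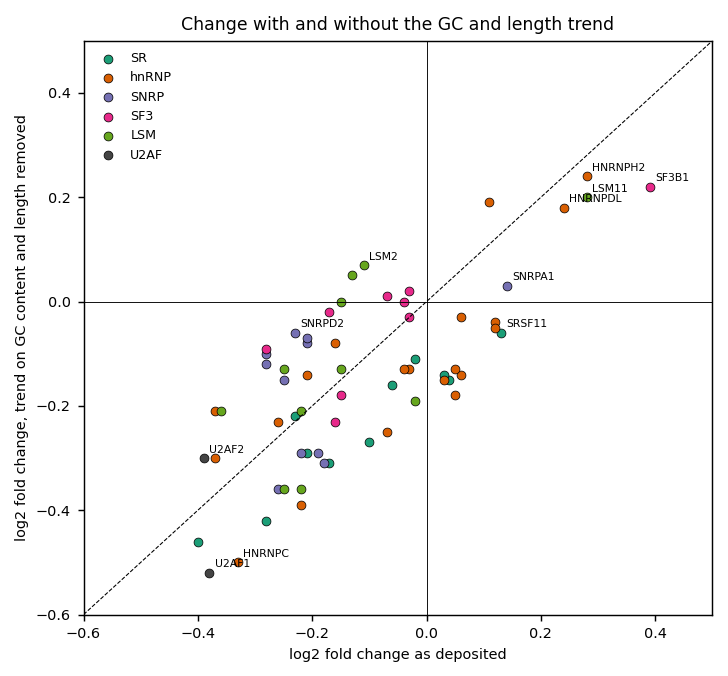
Log2 fold change of each splicing gene as deposited (x axis) against that with the trend on GC content and length removed (y axis); the dashed line marks equal values. SF3B1, HNRNPH2, HNRNPDL and LSM11 stay above 0, while SRSF11 and other genes near 0 drop below it and SNRPD2 moves up to -0.06.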

How the data were processed

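RNA-seq of 6 CAL27 libraries (3 untreated, 3 with lactate) was used as the table of FPKM values that the authors deposited. The submitters' processing notes name hg38 as the build and featureCounts 1.5.0-p3, StringTie 1.3.3b, fastp and HISAT2 2.0.5 as tools. The sources used here do not give each tool's role, the annotation release or the use of strand. Groups came from the treatment in the labels. The 11792 of 31368 genes that reached 1 FPKM in 3 or more libraries were tested with limma 3.58.1 (R 4.3.3; trended and robust variance, group only) on log2(FPKM + 1), with Benjamini-Hochberg adjustment over all of them and a threshold of 0.05. All 64 genes described passed this filter. The SE is limma's moderated one.

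Whole reads were recovered from the FPKM values with a common length per gene, to within 0.01 reads for 99.99% of genes, and used for depth, for copies and for voom, which called 10 of the 64 genes higher and 40 lower (3520 and 3874 of all genes). Coordinates, GC content and the length used in removing the trend came from GENCODE 29. In the recovery of reads, 17037 genes fitted their GENCODE 29 exon length. For 14329 genes another whole length was found by search. SNRPN, SRSF12 and genes without a symbol in the table (8154) are not analysed here. Promoter windows came from RefSeq (GRCh38.p14).

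The genes described, the lists of other splicing genes and markers, and the tests were chosen with earlier results of these data known. Up to 4 rises and 4 falls past the threshold per group, the most abundant gene of each group and both U2AF genes were given per library. One gene that the rule names among the other splicing genes is not reported here. The fits were tested on simulated data. Alternatives are in the closing section. Python 3.11.15, pandas 2.3.3, numpy 2.4.6, scipy 1.17.1 and matplotlib 3.10.9 were used.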

Additional observations from a re-analysis of the deposited data

How the results depend on the processing

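Of the 7 genes that rose and the 39 that fell, 4 and 26 kept call and direction in the 16 alternatives without a stricter threshold (LSM11 could not be fitted at 5 FPKM). Quantile normalization gave 14 genes higher (hnRNP 9, SF3 2) and 29 lower (SNRP 7), an SR median of 0.02, and positive values for SRSF3 (0.02), HNRNPK (0.15), HNRNPD (0.01), SF3B6 (0.12) and LSM2 (0.01). Scaling to recovered read totals gave 16 higher (SR 3, hnRNP 10) and 33 lower, 5 LSM genes lower and a median of 0.01 for the other splicing genes; over all genes it called 4207 higher and 2534 lower, against 3265 and 3649, and moved the median by 0.058. Removing the GC and length trend gave 0 SR, 0 SNRP and 19 other splicing genes higher, 10 SR and 14 hnRNP genes lower, and turned SRSF11 (-0.06), SRSF10 (-0.15), SRSF4 (-0.14), HNRNPLL (-0.04), HNRNPH1 (-0.14), HNRNPA2B1 (-0.13), HNRNPU (-0.18), HNRNPR (-0.15), LSM2 (0.07), LSM10 (0.05) and LSM1 (0.00). A minimum fold of 1.2 left 0 genes higher and 5 lower (SR 1, hnRNP 2, U2AF 2, none of SNRP, SF3 and LSM), and 0 higher and 8 lower of the other splicing genes. No SR gene was higher without a filter (0) or at an adjusted p under 0.01 (0), 6 hnRNP genes were higher by voom, and at 5 FPKM no LSM gene was higher (0) because LSM11 was not tested. The cause of these shifts was not tested. Leaving out 1 library gave 5 to 7 genes higher and 36 to 38 lower, with 0 to 1 SR genes higher (0 without untreated library 2 or 3 or lactate library 1). Correlations of same-numbered libraries were 0.0526, 0.0668 and -0.00377. Untreated libraries 1 and 2 correlated best with their own number, and untreated library 3 with another. These small values do not settle whether replicate numbers pair the libraries. With the replicate number as a block, 5 hnRNP genes were higher in place of 3 (HNRNPA3 and HNRNPA2B1 added), SF3A2 passed as lower (-0.07, adjusted p = 0.0422), and the counts of the other families moved by less than 1.5 times. A median coefficient of variation of 2.40% to 2.61% with 3 libraries a group sets the smallest change that can be seen.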
